A study of Mus musculus with 6 samples.

Results

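Cholesterol and myelin lipid synthesis was examined through 36 listed genes, which encode enzymes of the mevalonate and sterol pathway, of fatty acid synthesis and elongation, and of sphingolipid and galactolipid synthesis, with their main transcriptional regulators. Members were matched to probe sets by gene symbol, and the list was chosen with earlier results of these data known. Of the 36, 35 had at least 1 probe set, out of 18193 genes with a probe set in the series, and 8 were on both array types. Array type A carried 34 of them with 64 probe sets and array type B carried 9 with 14 probe sets. After removal of dim probe sets, all 34 remained on A with 58 probe sets, and 8 remained on B with 12. Acat2, the cytosolic acetoacetyl-CoA thiolase gene, had no matched probe set, and Msmo1, at 12.4, 60.5 and 95.7 in pool 1, pool 2 and wild type on B, was below the filter there. The 6 dim probe sets removed on A belonged to Fdps, Fdft1, Lss, Cyp51 and Sptlc1 and read at most 44.6 in any pool.

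The arrays measured total RNA of mouse lumbar spinal cord, segments L3 to L5, at postnatal day 27. There were 3 RNA pools, each from 3 cords, hybridised once to each array type. Pool 1 and pool 2 were labelled Egr3-deficient and the remaining pool wild type. Egr3 is an immediate early zinc finger transcription factor, and mice lacking it are known for the absence of muscle spindles. The labels give neither the Egr3 allele, the strain nor the sex. They add a remark on acclimatization for pool 2 and wild type that is missing for pool 1. Nothing pairs the pools. Wild type is a single pool whose own variation was not measured. With pooled whole-segment RNA, a smaller share of a cell type and less RNA per cell cannot be told apart.

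The central nervous system makes nearly all of its own cholesterol, and myelinating oligodendrocytes are its largest users. Acetyl-CoA is built into mevalonate, isoprenoids and squalene, which is cyclised to lanosterol and trimmed to cholesterol. SREBP transcription factors turn these genes and those of fatty acid synthesis on when membrane sterol is low. Myelin further needs very long chain fatty acids and galactosylceramide with its sulfated form, sulfatide, all of which are made by separate enzyme families.

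Median deposited intensity ranged from 50.3 to 60.1 over the arrays of type A and from 76.2 to 91.8 over those of type B. The pools also differed outside lipid synthesis. Egr3 itself read 24.9 and 52.7 in pools 1 and 2 against 40.6 in wild type on A, and 210 and 107 against 75.3 on B, so it was not lower in both pools and the groups are named by their labels. Skeletal muscle markers summed to 5894 and 7020 in the labelled pools against 1009 in wild type on A, with 12 of 12 markers above wild type in both. Liver markers summed to 493, 11891 and 174. Oligodendrocyte and compact myelin markers, at 36132, 40229 and 46516, and neuronal markers, at 15126, 16518 and 19999, were bright in every pool on A. Both sums were highest in wild type there but lowest in wild type on B. The B sums were 17705, 13857 and 11962 over 3 oligodendrocyte genes and 22054, 23441 and 20709 over 6 neuronal genes. For the 18S ribosomal RNA control, signal at the 3' end over the 5' end was 2.27, 1.08 and 0.0493 on A, and for the Gapdh control 0.858, 0.975 and 0.734. The part of any of these in the lipid gene values was not tested.

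The members did not move as a block. On array type A, 14 of 34 genes were below wild type in both labelled pools, 17 were above it in both, and 3 differed in direction between the pools. That was 41.2% below and 50% above, where 31.1% and 52.1% of all genes were. These counts take the brightest kept probe set of a gene, and every log2 value is on the scale of log2(intensity + 16) after quantile normalization. The median log2 difference was 0.062 over the members and 0.17 over all 8251 genes. By probe set, 27 of 58 were below in both pools, 46.6%, where 34.8% of all kept probe sets were, and 21 were above in both, 36.2%, where 47.9% were. The SD of the difference across genes was 0.65 for the members and 0.64 for all genes.

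No member passed the test, which was limma with Benjamini-Hochberg adjustment over all kept probe sets of the array type and a threshold of 0.05. It called 0.0663% of the kept probe sets on A higher and 0% lower, and 1.02% higher and 0.607% lower on B. At an unadjusted p under 0.05 by the same limma fit, 16 of 58 member probe sets on A were lower and 3 higher. Of all 13576 kept probe sets, 1730 were lower and 1077 higher. Several of the 16 share a gene. Counted once per gene by the brightest probe set, 6 of 34 members were lower and 2 higher, against 885 and 722 of 8251 genes. The lowest limma adjusted p among the members was 0.112 on A and 0.315 on B. With median centring in place of quantile normalization, 3 members on A passed, Ugt8a, Hmgcs1 and Idi1, among 824 calls in all against 9 here, and none on B. Since the labelled group had 2 pools and wild type 1, the fit had 1 residual degree of freedom; its adjusted p values lean on the spread shared across probe sets.

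A smaller set of members lay far below wild type in both pools. On A, 7 of 58 member probe sets, 12.1%, lay 2-fold or more below wild type in each labelled pool on this scale, where 4.35% of all kept probe sets did. They belonged to 5 genes, Hmgcs1, Idi1, Lss, Elovl7 and Ugt8a, and probe sets of 1 gene share a target, so the 7 are not independent. Counted once per gene by the brightest probe set, 2 of 34 members qualified, Idi1 and Ugt8a, which was 5.88% against 3.28% of all genes. No member probe set lay 2-fold or more above wild type in both, where 1.2% of all did. The members far below wild type were thus few, and by gene their share was not far from that of all genes. Hmgcs1, Lss and Elovl7 qualified only by a probe set other than their brightest.

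**Figure D1:**
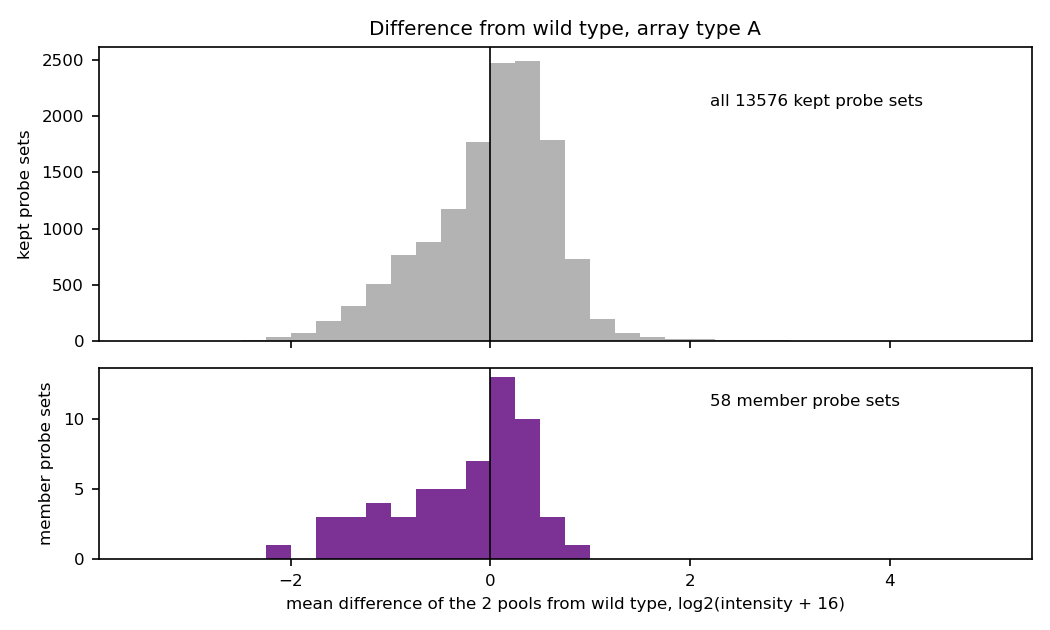
Mean difference of both labelled pools from wild type on array type A, in log2(intensity + 16), as a histogram of all 13576 kept probe sets (upper panel) and of the 58 member probe sets (lower panel), counts on the vertical axes. The member probe sets spread on both sides of 0 and reach down to -2.18, a probe set of Ugt8a.

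Promoter windows of 4 members are shown because they cover the largest differences in both directions among the sterol, galactolipid and fatty acid enzymes. Hmgcs1, Idi1 and Ugt8a were below wild type and Fasn was above it. The windows are RefSeq sequences of build GRCm38.p6, from 250 bases before to 50 bases after the annotated start, written 5′ to 3′ along the gene's strand. Hmgcs1 is at chr13:119690101-119690400, plus strand. Idi1 is at chr13:8885356-8885655, plus strand. Ugt8a is at chr3:125938603-125938902, minus strand. Fasn is at chr11:120824498-120824797, minus strand. Capitals mark 2 motifs searched on both strands, the sterol regulatory element written as TCACNCCAC and the CCAAT box, which reads ATTGG on the other strand.
Hmgcs1: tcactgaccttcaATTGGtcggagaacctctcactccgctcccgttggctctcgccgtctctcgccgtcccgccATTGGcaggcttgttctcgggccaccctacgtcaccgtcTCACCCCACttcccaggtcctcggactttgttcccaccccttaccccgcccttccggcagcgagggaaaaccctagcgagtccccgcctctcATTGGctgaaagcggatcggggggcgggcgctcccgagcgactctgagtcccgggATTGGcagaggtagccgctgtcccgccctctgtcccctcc
Idi1: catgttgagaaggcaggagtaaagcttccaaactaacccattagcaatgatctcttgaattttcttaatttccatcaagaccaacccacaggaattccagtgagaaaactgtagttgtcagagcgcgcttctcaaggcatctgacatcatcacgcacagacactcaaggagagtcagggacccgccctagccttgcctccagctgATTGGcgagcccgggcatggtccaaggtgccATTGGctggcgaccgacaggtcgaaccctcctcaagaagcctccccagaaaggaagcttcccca
Ugt8a: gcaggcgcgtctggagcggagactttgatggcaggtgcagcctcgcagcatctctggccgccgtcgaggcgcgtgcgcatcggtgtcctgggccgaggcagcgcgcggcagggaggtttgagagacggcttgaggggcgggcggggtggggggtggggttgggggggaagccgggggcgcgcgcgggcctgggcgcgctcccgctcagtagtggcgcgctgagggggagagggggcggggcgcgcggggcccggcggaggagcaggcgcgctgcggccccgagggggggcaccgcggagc
Fasn: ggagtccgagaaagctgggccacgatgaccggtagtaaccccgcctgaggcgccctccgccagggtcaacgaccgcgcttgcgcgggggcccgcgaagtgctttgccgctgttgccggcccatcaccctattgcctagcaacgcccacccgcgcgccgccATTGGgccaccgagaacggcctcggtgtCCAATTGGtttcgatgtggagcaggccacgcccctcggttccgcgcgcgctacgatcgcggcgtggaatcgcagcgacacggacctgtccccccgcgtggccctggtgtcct

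The Hmgcs1 window held TCACCCCAC, the sterol element, beginning at position -137 from the start, and 4 CCAAT boxes. Idi1 had 2 CCAAT boxes, Fasn had 3, of which a pair overlaps, and Ugt8a had 0. Windows of this length were at hand for 30 members, in 39 windows. Not among them were Fa2h, Fdft1, Fdps, Scd1, Scd2 and Sqle. Of the 39 windows, 1 held the sterol element in this exact spelling, against 1.24% of all 32851 promoter windows. The CCAAT box was in 28 of the 39, 71.8%, against 37.4% of all windows, and the GC box, GGGCGG or CCGCCC, was in 26, 66.7%, against 35.7%. Members below wild type (Hmgcs1, Idi1) and members above it (Fasn, Mvk) both had CCAAT boxes. A match is a description of these letters only.

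Among the enzymes from acetoacetyl-CoA to farnesyl diphosphate, 2 of 6 measured genes were below wild type in both pools on A and 4 were above. Hmgcs1 makes HMG-CoA and so feeds the whole pathway. With its brightest probe set it gave an intensity of 2245 for pool 1 and 3762 for pool 2, against 7012 for wild type. Its other 3 probe sets on A read 2133 and 3149 against 5633, 1770 and 1734 against 3961, and 643 and 918 against 2011. All 4 were thus highest in wild type, with log2 differences from -1.14 to -1.51. For the brightest the log2 difference was -1.27 (SE 0.29, limma adjusted p = 0.161). The 1 probe set on B was far dimmer and read 112 and 33.8 against 125, with the difference resting on pool 2 alone.

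Idi1, the isomerase that readies isopentenyl diphosphate for chain building, showed the largest difference of any member by its brightest probe set. Idi1 read 250 and 457 against 1104, with a mean log2 difference of -1.72 (SE 0.38, limma adjusted p = 0.161). The difference was -2.13 for pool 1 and -1.31 for pool 2. The other probe set read 177 and 194 against 378, and both labelled pools lay near each other there. Hmgcs1 and Idi1 stood apart from the 4 enzymes between and after them in the route.

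Those 4 were above wild type in both pools, by log2 differences of 0.08 to 0.37 in pool 2. Mvk, mevalonate kinase, read 237 and 165 against 130 (log2 difference 0.62), but its second probe set, at 95.0 and 65.1 against 81.3, had wild type in between. Pmvk, phosphomevalonate kinase, read 285 and 187 against 183. Mvd, the decarboxylase that follows, read 256 and 158 against 151 and, with another probe set, 206 and 152 against 144. For Pmvk and Mvd, pool 2 was close to wild type and pool 1 set the difference. Fdps, farnesyl diphosphate synthase, read 1707 and 1398 against 1211 (log2 difference 0.21). A second Fdps probe set read under 1 in every pool and was not used.

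**Figure D2:**
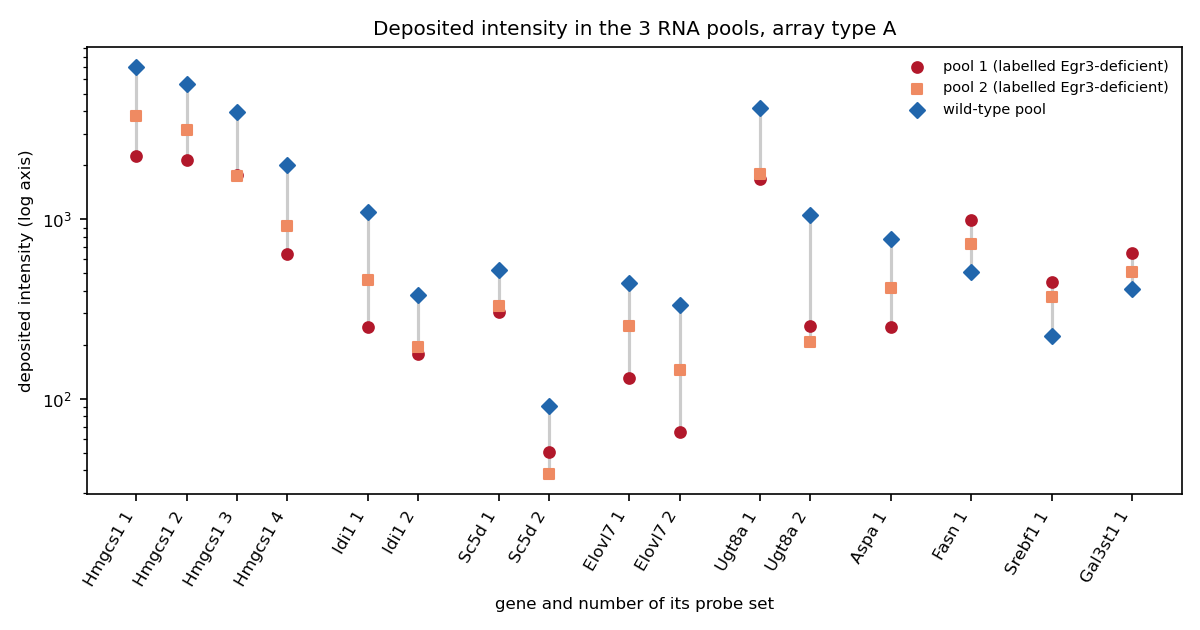
Deposited intensity (log axis) of the kept probe sets of 9 members on array type A, numbered within each gene from the brightest in wild type. Wild type is above both labelled pools in all probe sets of Hmgcs1, Idi1, Sc5d, Elovl7, Ugt8a and Aspa, and below both for Fasn, Srebf1 and Gal3st1.

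From squalene to cholesterol, 6 of 11 genes were below wild type in both pools on A, 4 above and 1 split, with log2 differences from -0.71 to 0.46. Those ranges are for the brightest probe set of each gene. Of the 6, only Sc5d and Hsd17b7 stayed below in both pools under the other scalings, while all 4 above stayed there. Fdft1, squalene synthase, read 1332 and 1115 against 1059, and with another probe set 1030 and 678 against 720. Sqle, squalene epoxidase and a main control point of sterol synthesis, read 882 and 793 against 817, with wild type between the pools. Cyp51, lanosterol demethylase, read 739 and 641 against 744. Msmo1, the methylsterol oxidase, read 1311 and 1199 against 1249. Nsdhl, which removes carboxyl groups from the sterol ring, read 598 and 581 against 599. The log2 differences of Sqle, Cyp51, Msmo1 and Nsdhl lay between -0.15 and -0.028, and each turned positive under at least 1 other scaling, so no direction is given for them.

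Later sterol enzymes went both ways. Sc5d, the sterol desaturase, read 303 and 331 against 523 on A (log2 difference -0.71, SE 0.29, limma adjusted p = 0.229) and 50.5 and 38.3 against 91.8 with a dimmer probe set. On B, measured with another probe set in the same pools, it read 569 and 686 against 1003 (log2 difference -0.86, limma adjusted p = 0.315). Wild type was highest for Sc5d in all 3 probe sets. Hsd17b7, a sterol ketone reductase, read 87.6 and 124 against 149 and, with a dimmer probe set near the filter intensity of 36.7, 40 and 45.7 against 101. On B it read 779 and 758 against 930 (log2 difference -0.49, SE 0.40, limma adjusted p = 0.641). A dimmer probe set there, at 193 and 145 against 161, had wild type between.

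Lss, lanosterol synthase, differed by probe set. Its brightest probe set, of a class that can hybridise to several transcripts, gave 249 and 171 against 259, and split between the pools under median centring. The other kept one gave 146 and 157 against 345, a log2 difference of -1.07 (limma adjusted p = 0.166). The remaining enzymes of the stretch were slightly above wild type. Tm7sf2, a sterol reductase, read 426 and 398 against 297 (log2 difference 0.46, SE 0.29, limma adjusted p = 0.379). Ebp, the sterol isomerase, read 439 and 368 against 325. Dhcr7, the reductase of the last step, read 377 and 279 against 274. For Dhcr7 pool 2 and wild type were nearly equal.

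The regulators did not follow Hmgcs1 and Idi1. Srebf1, which encodes the SREBP form tied most closely to fatty acid genes, read 448 and 368 against 223 on A, a log2 difference of 0.86 (SE 0.30, limma adjusted p = 0.193). It had the largest positive difference of any member on A. Srebf2, which encodes the form tied to cholesterol genes, read 238 and 236 against 186 (log2 difference 0.39, limma adjusted p = 0.486) and, with another probe set, 166 and 126 against 128. Insig1, which holds SREBP precursors in the endoplasmic reticulum and is itself an SREBP target, was measured on B at 1478 and 2075 against 1533. Wild type lay between the pools for Insig1, and its log2 difference of -0.13 turned positive without quantile normalization.

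**Figure D3:**
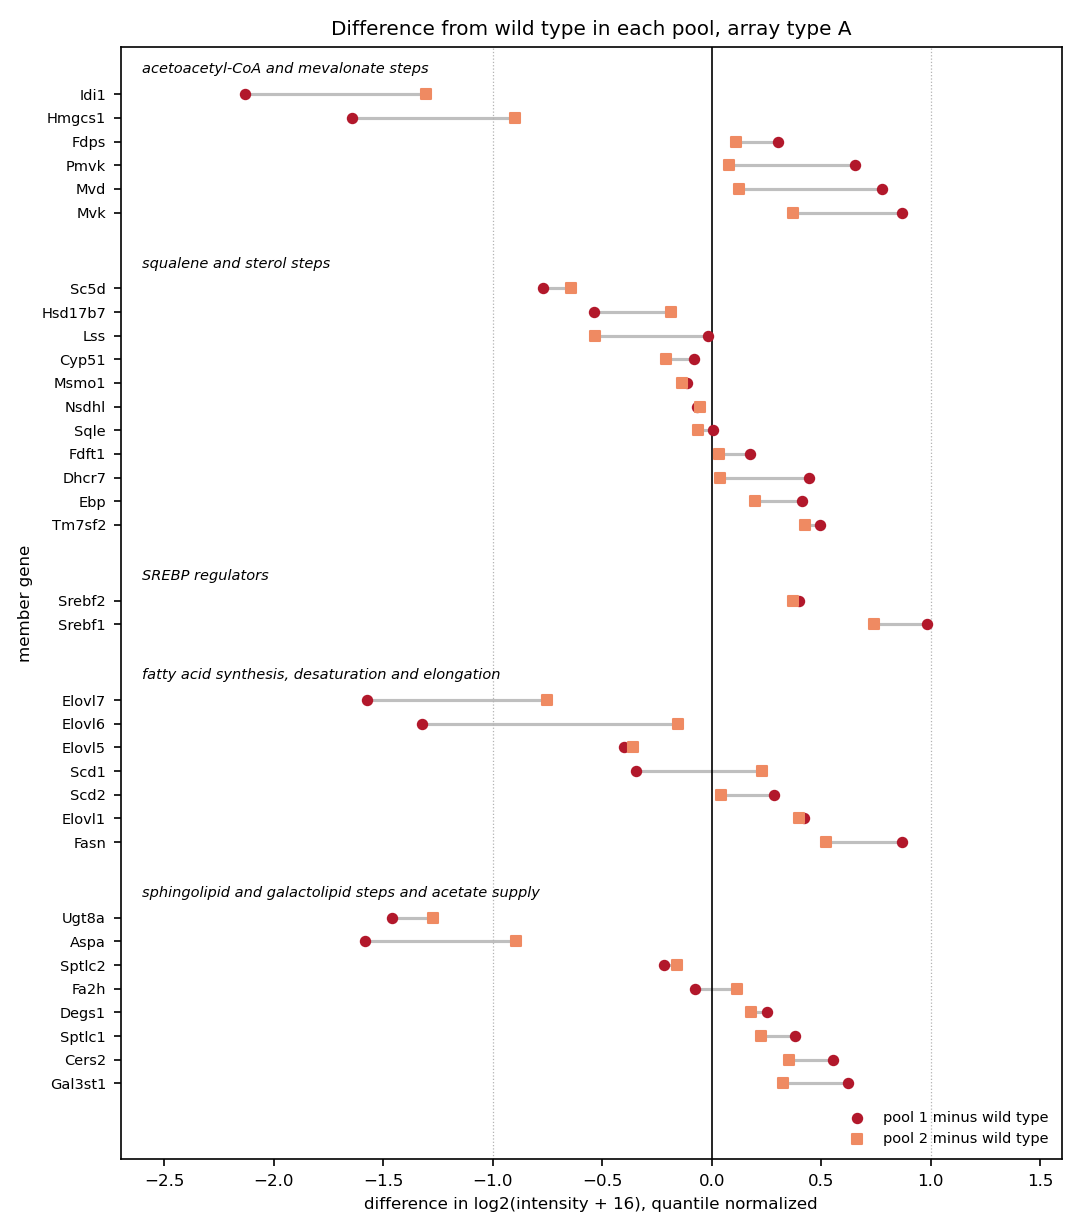
Difference of pool 1 (circles) and pool 2 (squares) from the wild-type pool for the 34 members on array type A, 1 probe set per gene, in quantile normalized log2(intensity + 16) and grouped by role. Dotted lines mark 2-fold. Idi1 and Ugt8a lie beyond 2-fold below wild type in both pools, Hmgcs1, Elovl7, Elovl6 and Aspa do so in pool 1 only, and the other members lie within the dotted lines in both.

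Among the 7 fatty acid genes on A, 3 were below wild type in both pools, 3 above and 1 split. Fasn, fatty acid synthase, read 995 and 728 against 506, a log2 difference of 0.70 (SE 0.28, limma adjusted p = 0.224), and wild type was the lowest pool. Elongases of the same family differed from each other. Elovl7, which extends long chain fatty acids, read 131 and 254 against 441 (log2 difference -1.16, SE 0.40, limma adjusted p = 0.189) and 65.7 and 145 against 332 with its other probe set on A. In both, pool 1 was the lowest, pool 2 intermediate and wild type the highest. On B all 4 Elovl7 probe sets were highest in wild type, the brightest at 848 and 952 against 1310 (log2 difference -0.79, limma adjusted p = 0.34).

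Elovl6, which extends palmitate to stearate, differed from wild type most in pool 1. It read 201 and 480 against 538 and, with a dimmer probe set, 94.0 and 159 against 231 on A, and 12.7 and 168 against 125 on B, where pool 2 was above wild type. Elovl5, an elongase of polyunsaturated fatty acids, read 1006 and 969 against 1194, and with a probe set open to cross-hybridisation 1180 and 995 against 977. Elovl1, which makes the saturated very long chains of myelin sphingolipids, went the other way at 1440 and 1329 against 958, with 1464 and 1479 against 849 in another probe set of that class. The remaining probe set on A, at 858 and 666 against 715, did not separate the pools. On B it read 185 and 196 against 135 (log2 difference 0.56, limma adjusted p = 0.646), with the sign turned to -0.13 when arrays were centred on the probe sets common to both types.

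The stearoyl-CoA desaturases, which make monounsaturated fatty acids, gave no steady difference. Scd1 read 1599 and 2321 against 1751, with a mean whose sign depended on the scaling, and, with another probe set, 140 and 173 against 219. Scd2, the main brain form, read 5618 and 5366 against 4970 with its brightest probe set, but 2360 and 1852 against 2672 and 896 and 918 against 1317 with the others. Probe sets of the same gene thus lay on opposite sides of wild type.

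Liver and fat make fatty acids too, and their markers moved with pool 2. All 9 kept liver markers summed to 11891 in pool 2 against 493 in pool 1, and the 3 kept adipocyte markers of 7 on A summed to 101, 377 and 156 in pool 1, pool 2 and wild type. The defining adipocyte gene Adipoq read 8.69, 69.6 and 16.6, and Lep, Cidec and Pparg read under 15 in every pool. Member readings were mixed in this respect. The brightest Scd1 probe set on A, Insig1 on B and Elovl6 on B were highest in pool 2. Fasn and Srebf1 on A were highest in pool 1, and the other Scd1 probe set and Elovl6 on A in wild type. The part of liver or fat RNA in any of these values was not tested.

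For sphingolipids and galactolipids, 3 of 8 genes were below wild type in both pools on A, 4 above and 1 split. Ugt8a, the galactosyltransferase that makes galactosylceramide, the signature lipid of myelin, read 1666 and 1776 against 4163. Its dimmer probe set read 254 and 208 against 1058, with wild type at 4.16 and 5.09 times pools 1 and 2. In each probe set the labelled pools were near each other and wild type stood apart. The log2 differences were -1.37 (SE 0.20) and -2.18 (SE 0.30), each with a limma adjusted p of 0.112, the lowest among the members.

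Aspa, which frees acetate from N-acetylaspartate in oligodendrocytes and so supplies carbon for lipid synthesis, read 251 and 417 against 777 (log2 difference -1.24, SE 0.35, limma adjusted p = 0.165). Pool 1 was the lowest and wild type the highest. The enzymes around Ugt8a in the pathway did not share its difference. Gal3st1, which sulfates galactosylceramide to sulfatide, read 651 and 508 against 407 (log2 difference 0.48, limma adjusted p = 0.367). Fa2h, which hydroxylates the fatty acids of galactosylceramide, read 1183 and 1266 against 1112, and its log2 difference was 0.019. Cers2, the ceramide synthase for very long chains, read 953 and 776 against 600 (log2 difference 0.45).

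The first steps of sphingolipid synthesis were near wild type. Sptlc1 and Sptlc2 encode subunits of serine palmitoyltransferase. Sptlc1 read 335 and 297 against 257, with 2 further kept probe sets split between the pools. Sptlc2 read 120 and 132 against 156 on A and 354 and 442 against 428 on B. The log2 difference on B was -0.17 (SE 0.43, limma adjusted p = 0.927), and its sign turned under median centring. Degs1, which turns dihydroceramide into ceramide, read 1235 and 1078 against 916 and, in another probe set, 805 and 631 against 606.

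Myelin protein genes are made by the same oligodendrocytes, so they are given beside these lipid genes. Of 10 kept oligodendrocyte and compact myelin markers on A, 3 were below wild type in both pools, 3 above and 4 split, with a median log2 difference of -0.020 and a range from -0.70 to 0.52. Mobp, which encodes a myelin basic protein of oligodendrocytes, had the lowest, at 2872 and 5260 against 6394, and its other 2 probe sets on A were below wild type in both pools with log2 differences of -1.12 and -0.90. On B, Mobp went the other way or was split, with 13383 and 8695 against 6477 (log2 difference 0.069) and, in a dimmer probe set, 373 and 216 against 94 (log2 difference 1.55, limma adjusted p = 0.0689). For Mbp, the main myelin basic protein gene, the brightest of 8 kept probe sets read 8836 and 11730 against 14549, which after normalization was split between the pools with a log2 difference of -0.056. Of the other 7, 1 read 337 and 525 against 1099 (log2 difference -1.42, limma adjusted p = 0.161), and the remaining 6 had log2 differences from -0.10 to 0.22. Probe sets of the same myelin protein gene thus differed in size and direction. Mal, a myelin proteolipid gene, read 3063 and 3493 against 4182, and Nkx6-2, an oligodendrocyte transcription factor gene, 67.2 and 81.6 against 52.5. On B, Ermn, a myelin-associated cytoskeletal protein gene, fell from 3872 in wild type to 999 and 2573 (log2 difference -1.72, limma adjusted p = 0.00988). Opalin, an oligodendrocyte membrane protein gene, read 3322 and 2589 against 1612. The difference between the lipid genes and the myelin protein genes was not itself tested.

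**Figure D4:**
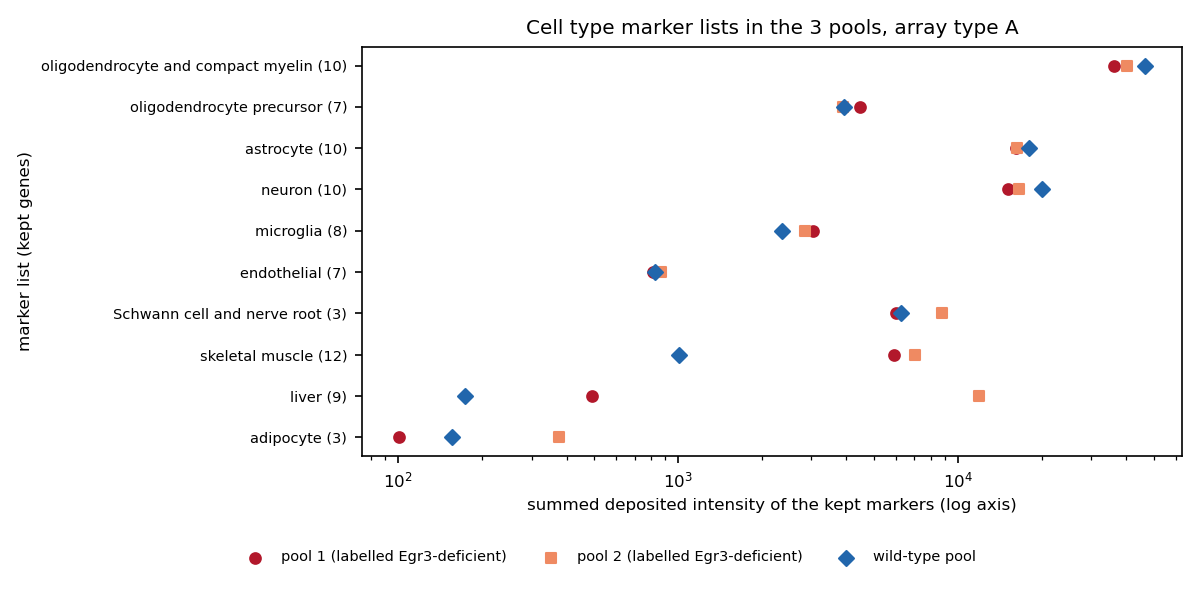
Summed deposited intensity (log axis) of the kept markers of 10 cell type lists in the 3 pools on array type A, with the number of kept genes in brackets. The sums of the nervous system lists differ less between pools than those of muscle and liver. Such sums are set mostly by bright markers, and single markers differ more. Aqp4 read 451 and 699 against 1774 in wild type, and Olig2 418 and 261 against 143. The skeletal muscle sum is 1009 in wild type against 5894 and 7020, and the liver sum reaches 11891 in pool 2.

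On array type B, 4 of the 8 kept members were below wild type in both pools, 1 was above and 3 were split. Over all 6829 genes there, 32.4% were below in both and 45.5% above. The median log2 difference was -0.59 for the members against 0.10 for all genes. Taken pool by pool, the member median was nearer 0, at -0.50 in pool 1 and -0.24 in pool 2. Members split between the pools enter the -0.59 with a mean set by 1 pool. Hmgcs1 was at 0.03 in pool 1 and -1.42 in pool 2, and Elovl6 at -2.11 and 0.49. By probe set, 7 of 12 were below in both, 58.3%, where 36.6% of all were, and 1 of 12 was above, 8.33%, where 38.9% were. Of those 7, 4 were the Elovl7 probe sets, which share a target. None of the 12 was at least 2-fold away in both pools in either direction, where 1.8% of all kept probe sets were lower and 4.27% higher by that much. Both array types were hybridised with RNA of the same 3 pools, so B repeats the measurement and adds no animals.

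**Figure D5:**
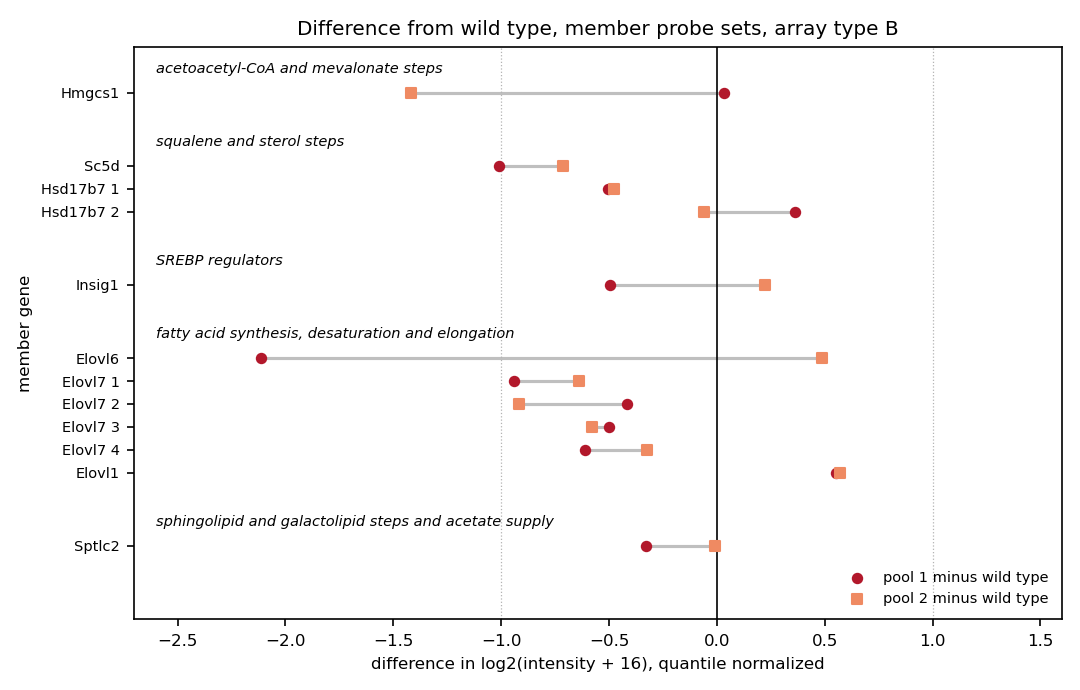
Difference of pool 1 (circles) and pool 2 (squares) from the wild-type pool for the 12 kept member probe sets on array type B, in quantile normalized log2(intensity + 16). Sc5d and the 4 Elovl7 probe sets lie below wild type in both pools, Elovl1 lies above, and Elovl6 and Hmgcs1 are far apart between the pools.

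Agreement between probe sets of a gene differed among the members. Of 19 members with more than 1 kept probe set on A, 8 had all of them below wild type in both pools, 3 had all above, and 8 were mixed. The same count was not made over all genes, so there is no background share to read it against. Those with all below included Hmgcs1, Idi1, Ugt8a, Elovl6, Elovl7, Sc5d, Hsd17b7 and Lss. The mixed ones included Mvk, Fdft1, Cyp51, Scd1, Scd2, Elovl1, Elovl5 and Sptlc1. Pool 1 was above pool 2 for 21 of the 34 members and below it for 13. The SD of that difference between pools on A was 0.43 for the members and 0.48 for all genes. On B it was 1.11 for the 8 members and 0.63 for all genes, and pool 1 was below pool 2 for 7 of the 8. How many of all genes had pool 1 above pool 2 was not counted on either array type. On A, 10 of the 14 members below wild type in both pools and 17 of the 17 above kept that position in all 3 other scalings. These were no quantile normalization, median centring and centring on shared probe sets. Those settings put the median of all kept probe sets on A at 0.054, 0.17 and 0.055, against 0.11 here.

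Other genes of these pathways were likewise mixed. In sterol control, uptake and export, 5 of 14 kept genes on A were below wild type in both pools and 8 above, and none passed. Stard4, a sterol carrier gene, read 135 and 102 against 250 (log2 difference -0.95), with -0.26 on B, and Abcg4, a sterol exporter gene, read 189 and 159 against 102 (0.77). In fatty acid supply, elongation and desaturation, 9 of 18 were below and 6 above, and none passed. Fabp7, a brain fatty acid binding protein gene, read 257 and 348 against 870 (log2 difference -1.53, limma adjusted p = 0.161), and Acaca, acetyl-CoA carboxylase, read 33.4 and 26.7 against 76.8, the latter below the filter intensity of 36.7 in both labelled pools. A far brighter Acaca probe set on B read 1036 and 936 against 823, with a log2 difference of 0.039.

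In sphingolipid synthesis and turnover, 5 of 17 on A were below and 8 above, and none passed. Asah2, a ceramidase gene, read 53.9 and 69.7 against 211 (log2 difference -1.47), but on B it read 214 and 185 against 216 (log2 difference -0.044) and was split. Sptssa, a small subunit of serine palmitoyltransferase, read 217 and 227 against 377. On B the 3 lists had 6, 11 and 9 kept genes. Of these, 1 gene passed. Fads2, a desaturase of polyunsaturated fatty acids, rose on B from 44.1 in wild type to 258 and 217 in the labelled pools (log2 difference 2.24, SE 0.48, limma adjusted p = 0.0076). Its wild-type reading lay below the filter intensity of 55.9, and on A a brighter probe set read 469 and 392 against 296 (log2 difference 0.52, limma adjusted p = 0.337). The other Fads2 probe set on A read 303 and 302 against 275, a log2 difference of only 0.14. Acsl3, an acyl-CoA synthetase gene, read 815 and 1413 against 2085 on B (log2 difference -1.23, limma adjusted p = 0.083). Smpd3, a neutral sphingomyelinase gene, read 273 and 252 against 165 on B, and its probe sets on A were below the filter. Abcg1, another sterol exporter gene, read 155 and 107 against 81.2 on B but 148 and 150 against 170 on A.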

How the data were processed

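The study was an array series of 6 hybridisations of 3 RNA pools on 2 array types, called A and B. The deposited values are linear intensity values per probe set and array. The program with which the authors summarised probes was not given in the sources used here. Gene symbols came from the platform annotation, updated through the gene identifier with the RefSeq table of assembly GRCm38.p6, and probe sets with several symbols were not used. Pools were the replicates, and p values rest on the spread between the 2 labelled pools, moderated by the spread shared across probe sets. Wild type, a single pool, adds no spread of its own. The p values speak for these pools only.

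Each array type was analysed alone. Control probe sets were removed (64 each), log2(intensity + 16) was quantile normalized, and probe sets at or above the 40th percentile of mean log2 were kept (13576 on A, 13507 on B). limma 3.58.1 in R 4.3.3 (lmFit, eBayes with trend) gave differences, SEs and Benjamini-Hochberg adjusted p values. Prior degrees of freedom were 6.54 for A and 52.3 for B. This takes wild type, a single pool, to vary as the labelled pools do. Differences on this scale understate changes of dim genes, and the number of arrays limits precision. Every member is given. Statistics are printed for the 2 members of each role with the largest same-sign difference in both pools, with others beside them chosen after their values were seen. For the pathway lists and the oligodendrocyte and compact myelin list, genes past the threshold or the largest by the same measure are named. The other marker lists are given as sums. Markers past the threshold in the muscle, liver and astrocyte lists are not named, those of astrocytes being lower on B. Members and lists were chosen with earlier results of these data known.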

Additional observations from a re-analysis of the deposited data

How the results depend on the processing

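No paired analysis was possible because there is 1 wild-type pool and the labels state no pairing. The alternatives were no quantile normalization, median centring, centring on the 100 probe sets shared by A and B, adjusting over A and B together, averaging a gene's probe sets, leaving out each labelled pool, robust or untrended eBayes, a 60th percentile filter or none, and pseudocounts of 1 and 64. On A, 3 members passed under median centring, Ugt8a, Hmgcs1 and Idi1, and 1 passed with adjustment over both array types, Ugt8a (adjusted p = 0.0413). The limma adjusted p of Ugt8a ran from 0.00939 to 0.337 over the settings, that of Hmgcs1 from 0.00151 to 0.337 and that of Idi1 from 0.00964 to 0.337. On B no member passed under any setting. Over all probe sets, A had 9 calls, against 824 under median centring, 26 with adjustment over both types, and 0 with no filter or centring on shared probe sets. B had 220, against 2 without quantile normalization, 141 under median centring, 349 at pseudocount 64, 375 with the 60th percentile filter, 371 with robust eBayes, 121 with adjustment over both types, and 0 without trend, with no filter or on shared centring. The cause of these shifts was not tested.

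The member median of 0.062 on A was 0.14 without quantile normalization and on shared centring, 0.26 under median centring and -0.0046 with the mean of all probe sets. On B the median of -0.59 was -0.40, -0.98, -0.23 and -0.39 under the same settings in that order, and -0.33 with the 60th percentile filter. Shared centring moved the median of all kept probe sets on B to -0.66, and there 7 members, not 4, were below wild type in both pools. Of 195 alternative values for the 15 statistics named, 2 reversed, both on B: Elovl1 at -0.13 on shared centring and Sptlc2 at 0.060 under median centring. With pool 1 or pool 2 left out, 15 and 16 members on A were below wild type, and 6 and 5 on B.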
